A study of Mus musculus with 6 samples.

Results

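The cells described here are barcodes from mouse intestinal organoids sampled at day 1 whose transcriptomes were already rich in messages of absorptive enterocytes. A cell was taken when Apoa1, Apoa4 and Sis together gave 20 or more unique molecular identifiers (UMIs) per 10000 UMIs of the cell and when Chga plus Chgb, which mark hormone-secreting enteroendocrine cells, gave fewer than 5 UMIs. The rule found 243 of 5327 cells in the first day-1 library and 569 of 5079 in the second, or 812 of 10406 day-1 cells and of 28379 cells in the whole series. The cells were thus selected on the measured levels of these genes, which are given as a description, with no test.

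The day-1 organoids were wild type C57BL/6 (mouse age of 8 weeks) and had been cultured for 24 hours in EGF, Noggin and R-spondin medium with 20% Wnt3a-conditioned medium, 3 µM of the GSK3 inhibitor CHIR99021, 10 µM of the ROCK inhibitor Y-27632 and DMSO vehicle, in 2 libraries. The cells set against them came from wild type organoids of the same strain and age, also given DMSO, sampled at day 4 (96 hours) in 1 library. Those organoids had received the same supplements until day 3, then medium without them and a second dose of vehicle. Day, medium and library therefore cannot be told apart. Organoids were dissociated, sorted to remove debris and dead cells, and sequenced as droplet libraries of RNA 3′ ends. Of the other 3 libraries, all of day 4, 1 had an RXR antagonist (5 µM), 1 retinoic acid (10 µM) and 1 medium free of vitamin A. Intestinal organoids hold epithelium only, and the labels do not say how many animals gave the cultures. P-values below therefore measure only the spread between the 2 day-1 libraries, which may be technical, and the lone day-4 library was assumed to vary as they do.

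Enterocytes absorb sugars, peptides and fats through a brush border of microvilli, and package fat and cholesterol into chylomicrons on a scaffold of apolipoproteins. In the gut they arise from stem cells of the crypt through dividing progenitors, stop dividing, and change their gene programme as they climb the villus. After injury, and in the first days of organoid growth, epithelium is known to pass through a regenerative state with fetal-like genes such as Ly6a, Anxa1 and Clu and high levels of simple keratins. Apoa1 and Apoa4 encode apolipoproteins of chylomicrons and high-density lipoprotein, and Sis encodes sucrase-isomaltase, a brush-border enzyme that splits sucrose and starch fragments.

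Cells passing the rule made up 4.56% of the first day-1 library (95% Clopper-Pearson interval 4.02 to 5.16) and 11.2% of the second (10.3 to 12.1). The intervals cover counting error only and do not overlap, so the spread between the replicate libraries was larger than counting error. At the same threshold of 20 the day-4 vehicle library held 54.8% such cells. At 100 or more per 10000, the level used for the day-4 comparison, the shares were 0.394% and 0.925% in the day-1 libraries and 16.7% (767 of 4604 cells) in the day-4 vehicle library. In the other day-4 libraries, 82.2% of cells reached 20 with retinoic acid and 38.0% in medium free of vitamin A. With the RXR antagonist 0 of 3468 cells did, which allows a share of up to 0.0865%.

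The score had no gap at the threshold. It was 0 in 33.4% and 25.3% of the cells of the day-1 libraries, with medians of 1.23 and 2.47 per 10000, against a median of 26.5 on day 4. Just inside the threshold, at 20 to 22, lay 22 and 48 cells, and just outside, at 18 to 20, lay 33 and 51. Of the members, 164 and 369 scored 20 to 50, 58 and 153 scored 50 to 100, and 21 and 47 scored 100 or more.

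**Figure D1:**
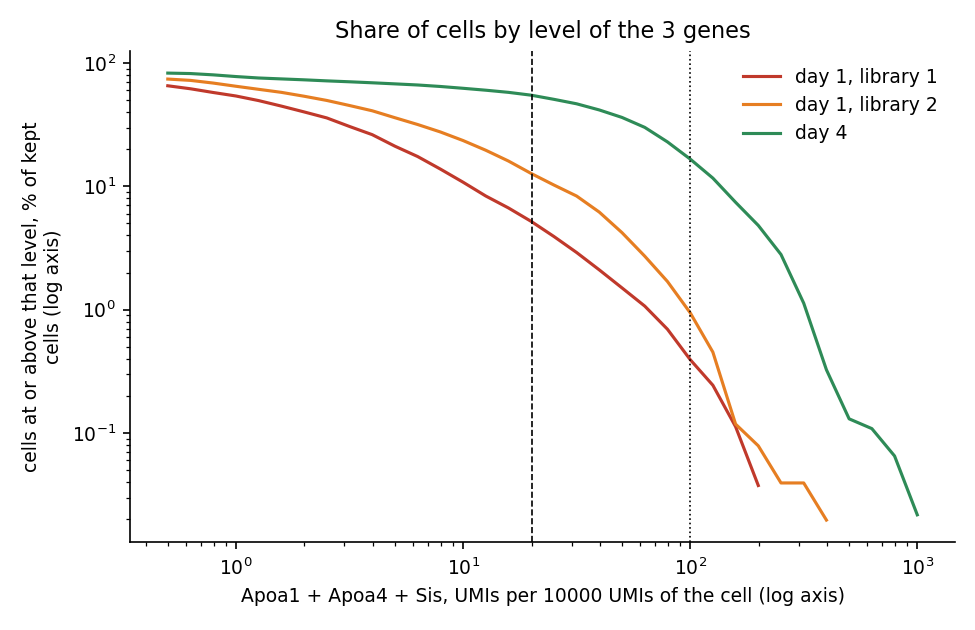
Share of cells (percent, log axis) whose summed Apoa1, Apoa4 and Sis UMIs reach the threshold on the x axis (per 10000 UMIs of the cell), for the 2 day-1 vehicle libraries and the day-4 vehicle library; no limit on Chga plus Chgb is applied, so the day-1 curves read 5.14% and 12.7% at 20. The curves fall smoothly through 20, and the day-4 curve lies above both day-1 curves.

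All 3 genes of the rule contributed. Apoa1 gave 48.4% and 50.4% of the members' summed UMIs of the 3 genes, Sis 38.2% and 35.5%, and Apoa4 13.5% and 14.0%. All 3 were detected in 188 of 243 and 500 of 569 members, and in 766 of 767 day-4 cells at 100 or more. The mixture changed along the score: Apoa1 gave 34.8% and 38.5% of these UMIs in members at 20 to 50, and 65.7% and 68.0% in members at 100 or more. In the remaining day-1 cells Sis gave 78.6% and 71.1% of the UMIs of the 3 genes. The limit on Chga plus Chgb removed 31 and 77 barcodes with a score of 20 or more, in which Sis alone gave 99.6% and 73.5% of the score.

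Genes outside the rule followed the label. Krt20, a keratin of differentiated villus cells, was detected in 92.6% and 92.9% of members after each cell was thinned to 5000 UMIs, against 37.3% and 51.9% of the other cells of the same libraries (95.5% and 97.9% against 52.8% and 64.4% unthinned, at median depths of 7164 and 10873 UMIs against 11691.5 and 11967). Anpep, the brush-border aminopeptidase N, was detected in 66.2% and 67.6% of members, against 9.76% and 12.9% of other cells after the same thinning. Transcripts of the stem cell receptor Lgr5 totalled 1 UMI in the members of each library. Of 8 immune, 7 tuft, 5 endothelial and 5 red blood cell markers, not 1 reached 10 CPM (counts scaled to a common library total) in any of the 4 summed day-1 profiles. Of 8 fibroblast and smooth muscle markers Vim, vimentin, alone did, at 0 and 0.321 CPM in members against 8.42 and 32.1 CPM in other cells. Its mean log2 ratio, with 5 CPM added, was -2.11. It moved to 0.0016 when enteroendocrine cells, which the rule keeps out of the members, were left out of the other cells.

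Members were shallower than their neighbours. Their median UMI counts were 7164 and 10873, against 11691.5 and 11967 in other cells, and they held 2587 and 3233 genes per cell against 3852 and 3872. Mitochondrial transcripts took 3.14% and 3.26% in members and 2.93% and 2.77% in other cells, and ribosomal protein transcripts 4.94% and 4.83% against 6.89% and 6.47%. Their median doublet scores, 0.0306 and 0.0268, lay under the 0.0633 and 0.0453 of other cells. The part of depth in the differences below was not tested beyond the thinned shares. The 2 day-1 libraries shared 9 barcode sequences and each shared 7 with the day-4 vehicle library, of which none was a member.

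Counts were summed over the members and over the other cells of each library, and a gene was called higher or lower when its level differed at least 2-fold in the same direction in both libraries, on a CPM scale with 5 CPM added. Because the rule chose the cells from the same transcriptomes, this is a description with no test. Of 8576 genes at 10 CPM or more in a profile, 321 (3.74%) were higher in members and 731 (8.52%) were lower. The median of all genes was -0.24 on the log2 scale. Scaling by trimmed means instead of total UMIs moved that median to -0.12, and the split to 406 higher and 549 lower.

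Genes of the digestive surface were higher in members to differing extents. Of 16 listed brush-border enzymes 11 were measured, and 10 of these were higher in members. Anpep was at 338 and 346 CPM in members, against 22.2 and 37.2 CPM in other cells. Enpep, aminopeptidase A, stood at 83.2 and 68.0 CPM in members against 3.61 and 7.26 CPM in other cells. By ratio, the 2 libraries lay closer together in members than in other cells for both enzymes, and in other cells the second library was higher. The classes lay far apart in both libraries. Of 11 genes of microvillus structure only 4 passed the 2-fold mark, with Espn, which bundles actin in microvilli, at 81.6 and 91.7 CPM in members and 7.07 and 13.8 CPM in other cells.

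Transporters of sugars, peptides, amino acids and bile acids were higher for 9 of 13 measured genes. The basolateral glucose and fructose carrier Slc2a2 was at 452 and 462 CPM in members and at 19.2 and 42.9 CPM in other cells. Slc5a1, the sodium-glucose cotransporter of the apical membrane, was at 528 and 518 CPM against 68.8 and 81.2. The bile acid exporter subunit Slc51b was at 74.0 and 72.0 CPM against 3.84 and 6.44.

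Genes of fat and sterol handling were also higher in members. Besides the rule's own apolipoproteins, 5 of 7 measured apolipoprotein and chylomicron genes were higher, among them Apoc3, an inhibitor of triglyceride clearance, at 114 and 124 CPM in members against 8.93 and 14.1 CPM, and Mttp, which loads fat onto apolipoprotein B, at 570 and 611 CPM against 128 and 152. Fatty acid uptake and triglyceride synthesis had 7 of 13 higher. Fabp1, a cytosolic fatty acid carrier, was at 19661 and 21275 CPM in members, against 2453 and 3445 CPM in other cells and 465 and 565 CPM in the enteroendocrine cells of the same libraries (Chga plus Chgb at 5 UMIs or more), which are secretory. Those cells were shallower, at medians of 2515 and 3551 UMIs, and the part of free RNA in their levels was not tested. Of 12 genes of sterol and vitamin A handling 7 were higher, with the retinol-binding protein Rbp2 at 8093 and 8366 CPM against 902 and 1304. Cholesterol synthesis differed from this: 0 of 22 genes passed the 2-fold mark in either direction, at a median of 0.23.

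Among the lists higher in members, detoxifying enzymes had the largest median. Of 16 measured cytochrome P450 and conjugation genes, 13 were higher, with a list median of 2.15 on the log2 scale. Cyp3a11, a P450 that oxidises many drugs and bile acids, stood at 587 and 679 CPM in members and 9.70 and 26.8 CPM in other cells. With 5 CPM added, its mean log2 ratio was the largest among measured genes outside the rule, with predicted and mitochondrial genes left out. Another P450, Cyp2c29, stood at 611 and 638 CPM in members against 21.9 and 52.2 CPM in other cells. Cyp2b10 was at 459 and 525 CPM against 22.6 and 37.1, and the glutathione transferase Gstm3 at 2452 and 2911 CPM against 220 and 332. Cyp3a, Cyp2c and Gstm genes have near-identical copies, so reads may be split between them and the single gene is less certain than the family. Of 10 genes of the urea cycle, arginine and carboxylesterases 6 were higher, with the arginase Arg2 at 482 and 511 CPM against 59.7 and 75.7.

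The list of lower villus and antimicrobial genes gave 5 higher and 1 lower of 9. Il18, an epithelial cytokine, was at 287 and 279 CPM in members against 30.9 and 46.3 CPM, and Reg3b, an antimicrobial lectin, at 115 and 138 CPM against 5.30 and 18.1. Dmbt1, a secreted mucosal scavenger receptor, went the other way at 4.32 and 2.89 CPM against 32.6 and 20.6. Leap2, the liver-expressed antimicrobial peptide that is also made in gut, was at 100.0 and 91.1 CPM in members and 1.84 and 2.85 CPM in other cells. Of 6 villus tip genes Krt20 alone was higher, at 744 and 828 CPM against 131 and 258.

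Transcription factors differed less than the genes of digestion. Of 18 measured intestinal factors 4 were higher: Creb3l3, which drives apolipoprotein and lipid genes in liver and gut, at 354 and 419 CPM in members against 44.5 and 72.7 CPM, and Maf, Nr1i3 and Nr1h4, the last being the bile acid receptor. Maf stood at 27.6 and 26.8 CPM against 3.54 and 5.56, and Nr1h4 at 57.3 and 54.0 CPM against 17.7 and 23.1. The list median was 0.28.

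**Figure D2:**
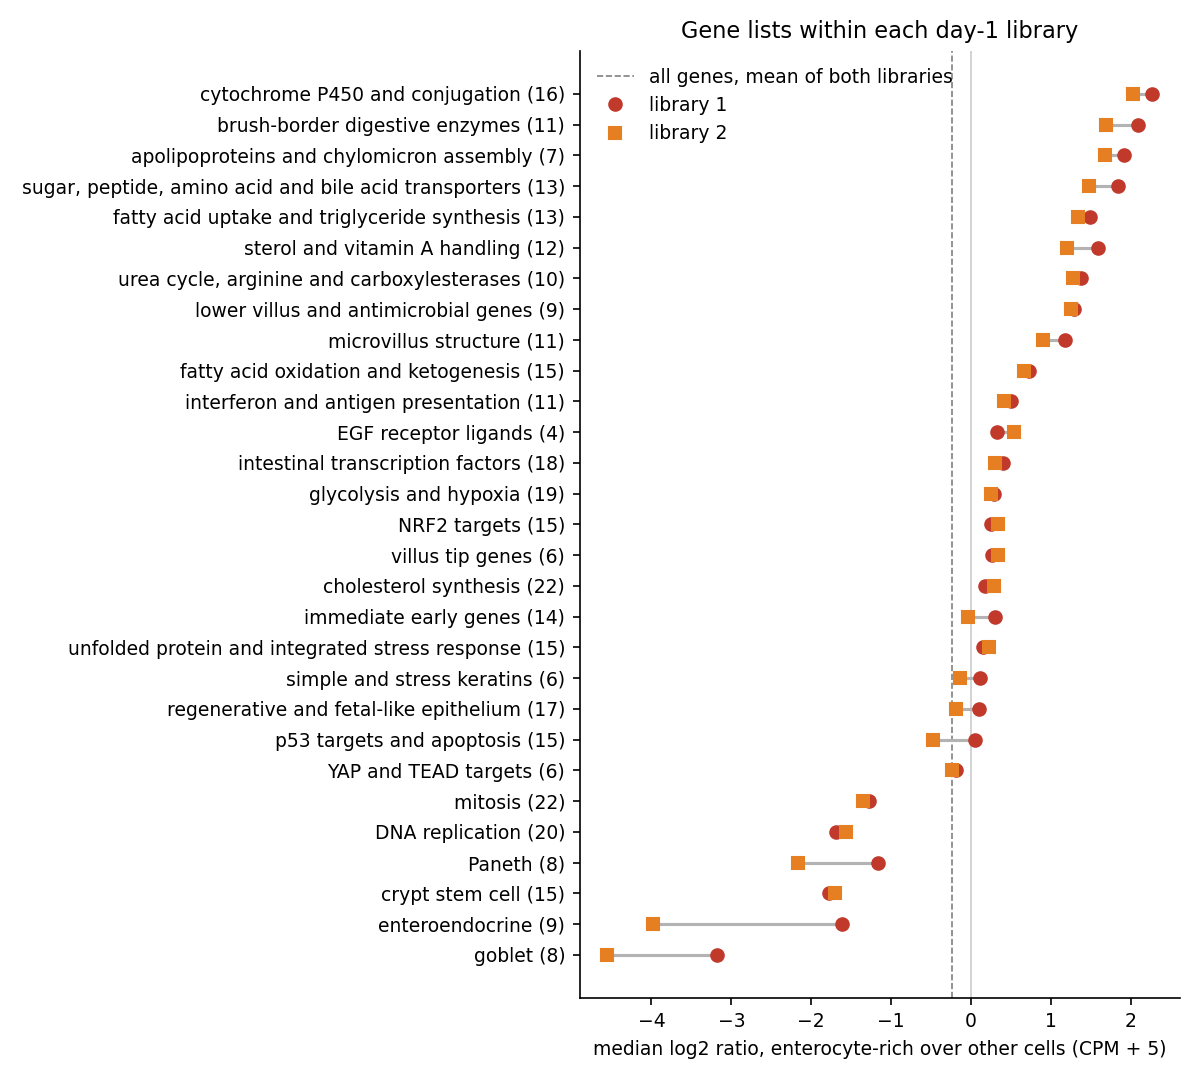
Median log2 ratio of each gene list, members over other cells of the same library (CPM with 5 CPM added), with 1 point per day-1 library and the number of measured genes in brackets; the dashed line is the median of all genes. Absorptive lists lie right of 0 in both libraries, stem, replication, mitosis, goblet and Paneth lists lie left, and the regenerative and keratin lists lie near 0.

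Genes of crypt stem cells, DNA replication and mitosis were lower in members. Of 15 stem cell genes 11 were lower, with Slc12a2, a chloride-loading cotransporter of the crypt, at 41.1 and 33.7 CPM in members and 349 and 248 CPM in other cells. Of 20 replication genes 19 were lower, as with the helicase gene Hells at 21.1 and 19.1 CPM against 164 and 118. Mitosis had 21 of 22 lower, including the topoisomerase Top2a at 152 and 129 CPM against 444 and 394. Top2a in the enteroendocrine cells, which rarely divide, was at 98.8 and 22.4 CPM.

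Secretory genes were lower as well. Of 8 goblet cell genes 7 were lower, with Tff3, a mucus trefoil peptide, at 14.1 and 27.6 CPM in members and 319 and 1026 CPM in other cells. Of 8 Paneth cell genes 5 were lower, with the defensin Defa24 at 8.65 and 11.5 CPM against 189 and 731. Of 9 enteroendocrine genes 6 were lower, but the rule caps these genes through Chga and Chgb. When the enteroendocrine cells were left out of the comparison, their list median moved to -0.02 against -2.44 with them.

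Regenerative genes showed no common difference between the 2 classes of day-1 cells. Of 17 measured genes Sprr1a and Cldn4 were higher in members and Ly6a and Clu were lower, and the list median was -0.08, or 0.05 with trimmed-mean scaling. Sprr1a, a cornified-envelope protein induced by stress, was at 35.1 and 103 CPM in members against 5.01 and 16.3. Anxa1, an annexin, was at 36.8 and 52.9 CPM in members against 44.8 and 71.6, above the 4.49 CPM of the first library's enteroendocrine cells and the 0 UMIs of the second's. Ly6a, the surface protein Sca-1, was at 30.3 and 31.9 CPM in members against 134 and 150 CPM in other cells and 126 and 73.9 CPM in enteroendocrine cells. For the 6 measured keratins the median was -0.01, or 0.12 with trimmed-mean scaling. Krt18 was at 2764 and 3022 CPM in members and at 3712 and 4094 CPM in other cells. Areg, a ligand of the EGF receptor, was the only one of 4 such ligands to pass the mark, at 1033 and 1276 CPM against 352 and 583, with 121 and 50.8 CPM in enteroendocrine cells.

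**Figure D3:**
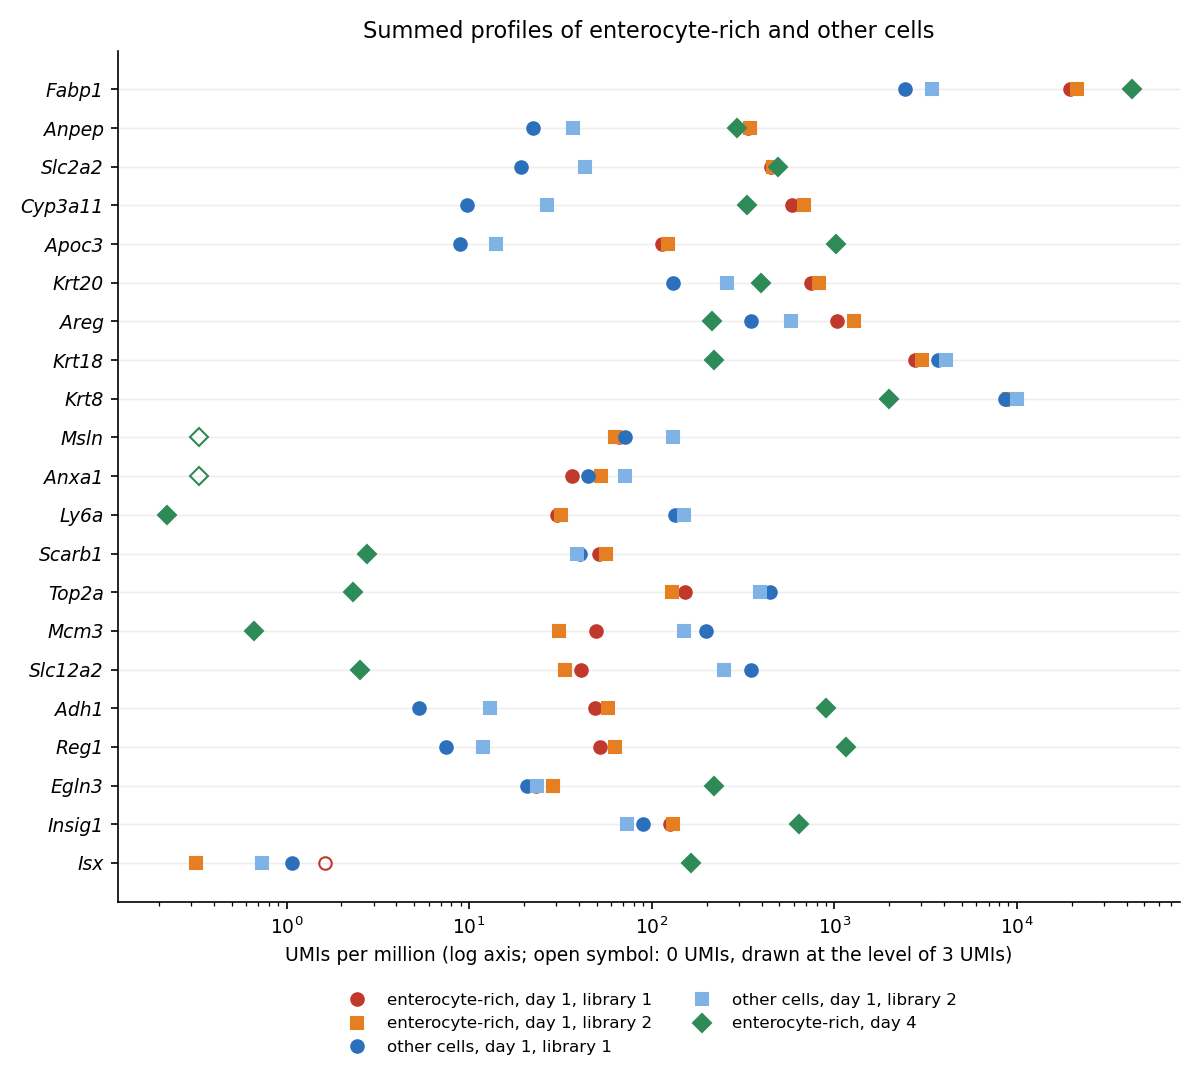
CPM (log axis) of selected genes in the members and the other cells of each day-1 library and in day-4 cells at 100 or more, with 1 point per summed profile; open symbols stand for 0 UMIs and are drawn at 3 UMIs. Cyp3a11, Anpep, Slc2a2 and Fabp1 separate members from other day-1 cells, and Krt18, Krt8 and Areg lie higher in both day-1 classes than on day 4.

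Members were not uniform in cell division. A cell was called rich in mitosis transcripts at 10 or more UMIs per 10000 from the mitosis list, a cut set after the data were seen. This held for 29.6% (24.0 to 35.8) and 24.4% (21.0 to 28.2) of members, against 88.4% and 74.2% of other day-1 cells. Along the score the share was 40.2% and 33.9% at 20 to 50, 10.3% and 9.15% at 50 to 100, and 0 of 21 and 0 of 47 cells at 100 or more. Those last counts allow shares of up to 14.3% and 6.38%. Median doublet scores of the members rich in mitosis transcripts were 0.0458 and 0.0419, against 0.0692 and 0.0512 in other cells rich in them. Over all members these scores were lower, at 0.0306 and 0.0268. The members rich in mitosis transcripts were also deeper, at medians of 8573 and 14026 UMIs against 7164 and 10873 over all members. Whether some of them are doublets was not tested. On day 4 the share was 28 of 1756 cells at 20 to 100 (1.59%) and 0 of 767 at 100 or more, which allows up to 0.391%. Thinned to 5000 UMIs, Mki67, which coats mitotic chromosomes, was seen in 25.5% and 20.1% of members, 73.7% and 63.5% of other day-1 cells and 1.26% of day-4 cells at 100 or more (30.5% and 27.9%, 83.4% and 70.8%, and 3.00% unthinned).

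Other lists differed in how they ran along the score. The summed cytochrome P450 and conjugation genes had medians of 128, 188 and 270 UMIs per 10000 over the 3 rising score bands of the first library and of 138, 202 and 237 in the second, with 40.9 and 48.1 in other cells and 162 on day 4. Krt20 had median levels of 5.34, 7.40 and 10.1, and of 6.00, 7.39 and 11.1. The regenerative list lay near the level of the other day-1 cells: its medians over all members were 60.1 and 57.7, against 59.1 and 62.9 in other cells and 19.6 in day-4 cells at 100 or more. The keratin list behaved in the same way, at 163 and 157 in members, 159 and 176 in other cells and 40.4 on day 4.

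**Figure D4:**
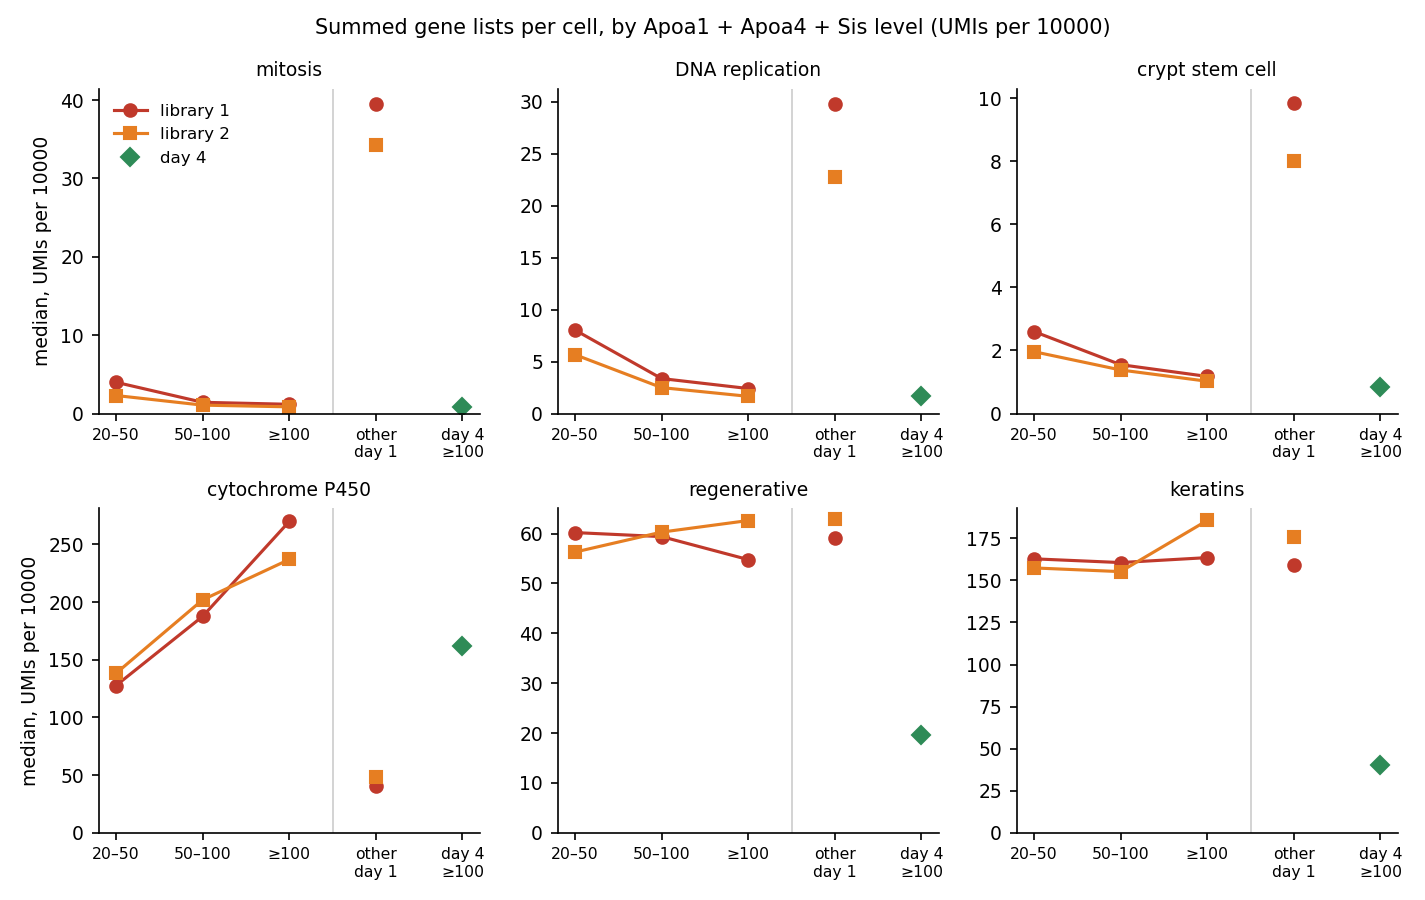
Median UMIs per 10000 of 6 gene lists in members at 20 to 50, 50 to 100 and 100 or more and in other cells, for each day-1 library, with day-4 cells at 100 or more beside them. Mitosis medians are lower and P450 medians higher along the score, while regenerative and keratin medians lie near those of other day-1 cells and above day 4.

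Promoters are shown for 3 genes that stand for the absorptive programme: Sis from the rule, Cyp3a11 with the largest ratio as ranked above and Alpi, the intestinal alkaline phosphatase of the brush border. They were chosen with their motif matches known: of 7 promoters read, that of Krt20 held 2 matches and those of Apoa1, Apoa4 and Anpep held 0, which says only that these letters are not in the window. Each run holds 250 bases before to 50 bases after the RefSeq start (GRCm38.p6), read 5′ to 3′ on the strand of the gene. Capitals mark matches, on either strand, to 5 short motifs: CAAAGTCCA for HNF4, the core GTTAAT of the HNF1 site, TTTATTG for CDX, AGATAA for GATA and TATAAA for the TATA box. A match is a description of letters and not a binding site.
Sis, chr3:72967814-72968113, minus strand: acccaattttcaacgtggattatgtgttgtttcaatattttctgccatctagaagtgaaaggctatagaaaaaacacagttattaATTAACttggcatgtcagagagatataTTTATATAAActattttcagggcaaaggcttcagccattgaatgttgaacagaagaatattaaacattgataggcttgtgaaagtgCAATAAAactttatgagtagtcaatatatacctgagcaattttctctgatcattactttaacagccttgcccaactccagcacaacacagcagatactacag
Cyp3a11, chr5:145879805-145880104, minus strand: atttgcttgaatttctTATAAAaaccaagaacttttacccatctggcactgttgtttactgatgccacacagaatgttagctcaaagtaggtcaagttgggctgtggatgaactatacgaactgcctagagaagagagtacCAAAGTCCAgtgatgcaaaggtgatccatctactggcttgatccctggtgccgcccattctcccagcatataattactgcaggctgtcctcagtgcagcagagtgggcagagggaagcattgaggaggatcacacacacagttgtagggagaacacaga
Alpi, chr1:87101557-87101856, minus strand: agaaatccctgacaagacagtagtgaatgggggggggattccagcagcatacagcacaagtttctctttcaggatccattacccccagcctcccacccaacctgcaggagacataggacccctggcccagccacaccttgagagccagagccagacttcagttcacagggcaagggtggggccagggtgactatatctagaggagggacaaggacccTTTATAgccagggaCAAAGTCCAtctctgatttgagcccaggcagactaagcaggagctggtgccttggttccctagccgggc
Cyp3a11 and Alpi both carry the HNF4 letters, at 109 and 19 bases before the start. In Sis the CDX letters lie 52 bases and the HNF1 core 165 bases before the start, and the 2 TATAAA matches overlap on opposite strands.

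Across the measured genes, the HNF4 letters stood in the promoters of 11 of 260 genes higher in members (4.23%), 1 of 588 lower genes (0.170%) and 44 of all 6847 measured genes with a promoter in the table (0.643%). The 11 genes were Alpi, Cyp2c65, Cyp2c68, Cyp3a11, Muc13, Nat8, Rab11fip3, Slc3a1, Sult1b1, Tmcc3 and Treh. The HNF1 core was found for 12.7% of the higher genes, 4.42% of the lower and 5.32% of all measured genes, and the TATAAA letters for 23.8%, 8.50% and 8.76%. CDX letters were found for 6.15%, 3.06% and 3.23%, and GATA letters for 13.8%, 6.97% and 7.43%. Base composition differed as well, with 54.9% G and C in promoters of higher genes, 60.8% in those of lower genes and 61.0% in those of all measured genes, and its part in these shares was not tested. Over all 27025 genes with a promoter, measured or not, the HNF4 letters were found for 0.555% and the HNF1 core for 8.24%. The CDX letters were found for 5.33%, the GATA letters for 12.7% and TATAAA for 15.7%.

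The comparison with day 4 asks how enterocyte-rich cells of the first day differ from those of the established organoid. Members of the 2 day-1 libraries were set against the 767 day-4 vehicle cells at 100 or more by edgeR's quasi-likelihood test on summed counts, which left 1 residual degree of freedom among samples. Of 11692 genes, 3342 (28.6%) were higher and 3276 (28%) lower on day 1 at an adjusted p of 0.05. As 56.6% of genes were called in either direction, a list's count in 1 direction is read against the 28.6% or 28%. Of the 10000 genes that reached the minimum of edgeR's filter on low counts (1.60 CPM) on both days, 2592 were higher and 3088 lower. Counts of list genes that reached it on both days are read against these. Trimmed-mean scaling put the median of all genes at 0.01, and total-UMI scaling shifted it to 0.31, with 4698 higher and 2063 lower.

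Messages of the regenerative state were far higher in the day-1 cells, but this was not particular to enterocyte-rich cells. In other cells the regenerative list had medians of 59.1 and 62.9 UMIs per 10000 on day 1 and 17.3 on day 4. The keratin list was at 159 and 176 against 63.9, where the other cells of day 4 are those below 100. Of the 27 regenerative genes 21 passed edgeR's filter on low counts, and all 21 were higher on day 1, with a list median of 3.28, or 3.20 when genes without a day-4 UMI are held at their lower bound. For 9 of them, Anxa1, Msln, Ly6a and Clu included, the filter's minimum of 1.60 CPM was reached on day 1 only, so their direction was fixed by the filter. The other 12 reached it on both days, and 12 of 12 were higher. Lgals3, galectin 3, was at 986 and 880 CPM on day 1 and at 83.2 CPM on day 4. S100a6, a calcium-binding protein, was at 692 and 605 CPM against 53.5, and Anxa3 at 95.1 and 127 CPM against 4.07 (log2 difference 4.50, adjusted p in edgeR of 8.22e-26). Anxa1, with 398 UMIs over the members, and Msln, mesothelin, with 516, had 0 UMIs in the day-4 cells, so that Anxa1 was at least 149-fold and Msln at least 193-fold higher on day 1, computed against 3 UMIs over the day-4 cells. Of 6 tested keratins 6 were higher, 5 of them above the minimum on both days. Krt18 was at 2764 and 3022 CPM on day 1 and 220 CPM on day 4 (3.42 ± 0.11 SE), and Krt8 at 8839 and 9057 CPM against 2003 (1.85 ± 0.11).

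Some ligands of the EGF receptor and some targets of the YAP and TEAD pathway were higher too. Of 5 ligands 4 passed the test (3 of the 4 that reached the minimum on both days), with Areg at 1033 and 1276 CPM on day 1 and 213 CPM on day 4, and Btc, betacellulin, at 91.9 and 138 CPM against 14.0. Among 9 YAP and TEAD targets 6 were higher (3 of the 6 on both days). F3, tissue factor, was at 96.2 and 123 CPM against 12.4, and Edn1, endothelin 1, at 22.7 and 27.6 CPM against 7.27. With DESeq2 in place of edgeR, 2 of 5 ligands and 3 of 9 targets were higher, against 1582 of all 11692 genes. With both days at 100 or more, 2 of 3 ligands were higher (1 of the 2 on both days). F3 was the only target tested there, and it reached the filter's minimum on day 1 only.

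Mitosis genes were higher on day 1 for 22 of 22, at a median of 4.81, and DNA replication genes for 20 of 20, at 3.51. Of these, 13 and 7 reached the filter's minimum on day 1 only, and the 9 and 13 that reached it on both days were all higher, at medians of 4.00 and 2.45. Top2a was at 152 and 129 CPM on day 1 and 2.31 CPM on day 4. The replication helicase subunit Mcm3, which reached the minimum on day 1 only, was at 49.7 and 31.1 CPM against 0.661. The result differed between bands of the score. With both days held at 20 to 100, where edgeR called 27.4% of 11733 genes higher and 27.6% lower on day 1, 22 of 22 mitosis genes (median 3.92) and 20 of 20 replication genes (3.01) were higher on day 1. With both days held at 100 or more, on 21 and 47 day-1 cells, it called 12.1% of 6010 genes higher and 15.7% lower, and 4 of the 22 mitosis genes and 5 of the 20 replication genes passed the filter on low counts. Of those 9 only Birc5, survivin, passed edgeR's test, also by unadjusted p under 0.05. It was lower on day 1 (15.1 and 14.4 CPM against 32.3 CPM) and had reached the filter's minimum, here 20.5 CPM, on day 4 only. The lists' medians were 0.17 and 0.85.

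Regenerative genes and keratins were higher on day 1 in both bands. With both days at 100 or more, against the 12.1% of all genes, 13 of 16 tested regenerative genes (median 3.54) and 6 of 6 keratins (1.81) were higher on day 1. The minimum was reached on day 1 only by 11 of these regenerative genes and 1 keratin. The 5 of each list that reached it on both days were all higher, at medians of 1.07 and 1.57. Of all 4578 genes that did so, 623 were higher and 750 lower. Lgals3 then stood at 871 and 994 CPM in the 21 and 47 day-1 cells, against 83.2 CPM on day 4. Krt18 was at 2613 and 3465 CPM against 220 CPM. Anxa3 was at 90.9 and 160 CPM against 4.07, and is among the genes that reached the minimum of 20.5 CPM on day 1 only. With both days at 20 to 100, 20 of 21 regenerative genes and 6 of 6 keratins were higher. Of those that reached the minimum on both days, 10 of 10 and 5 of 5 were higher. Of all 10132 genes that did so in that band, 2593 were higher and 3061 lower.

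**Figure D5:**
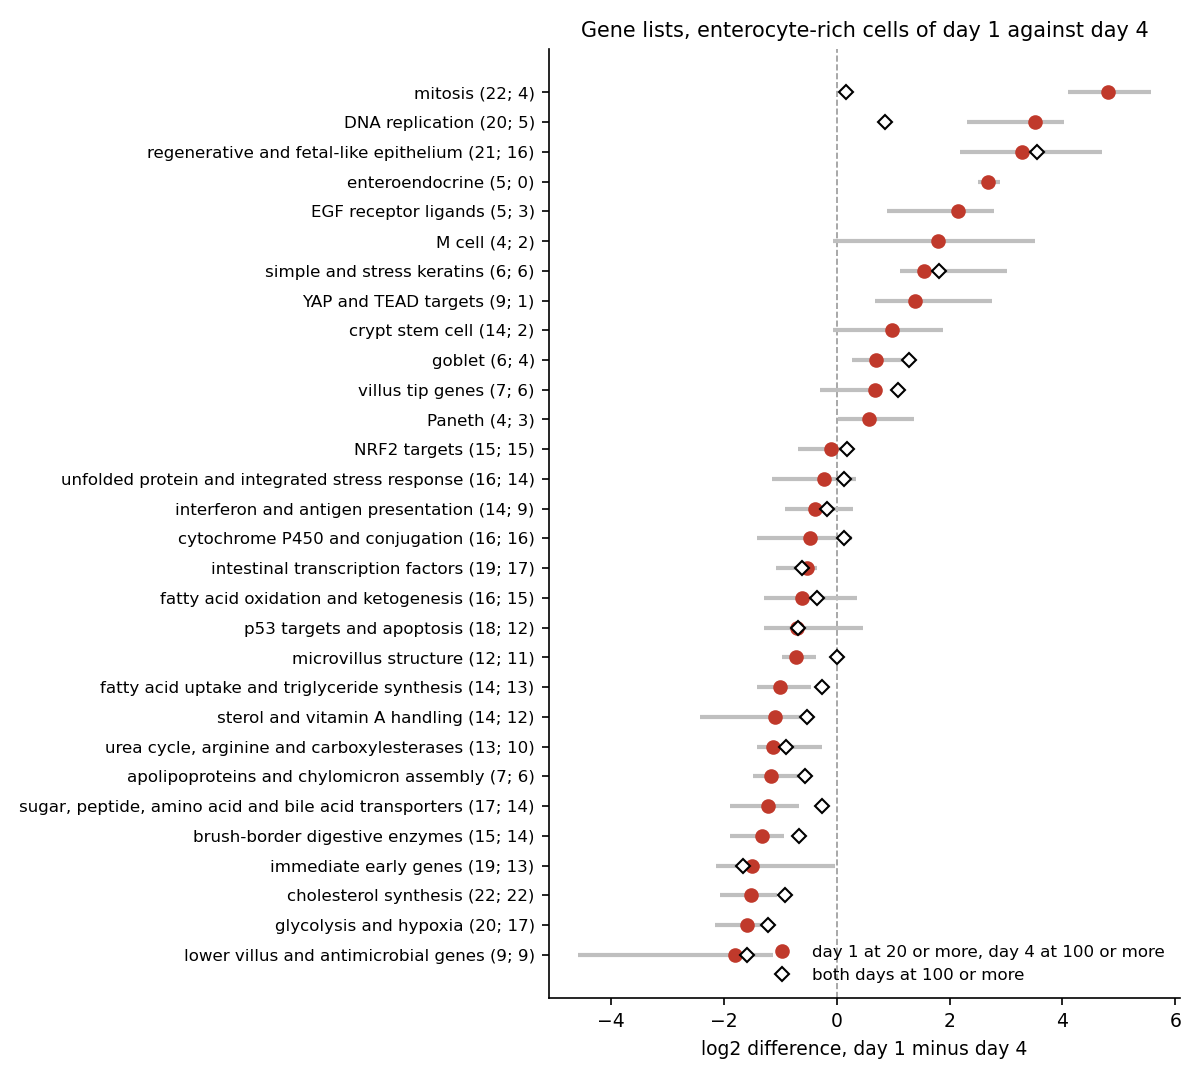
Log2 difference between enterocyte-rich cells of day 1 and day 4 from edgeR on summed counts: dots and grey bars give each list's median and its quartiles for members at 20 or more against day-4 cells at 100 or more, and diamonds the median with both days at 100 or more (lists with 4 or more tested genes; both numbers tested are in brackets, genes that passed the filter through 1 day only included). The mitosis and DNA replication medians are 4.81 and 3.51 as dots and 0.17 and 0.85 as diamonds, while the regenerative medians are 3.28 and 3.54.

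Absorptive genes were lower on day 1 in the main comparison, where the 2 days were cut at unequal scores. Of 15 brush-border enzymes 14 fell, of 17 transporters 16, of 14 genes of fatty acid uptake 13, and of 7 apolipoprotein and chylomicron genes 6. Apoc3 was at 114 and 124 CPM on day 1 and 1028 CPM on day 4, and the γ-glutamyl transferase Ggt1 at 3.24 and 3.37 CPM against 185. Anpep did not pass the test, at 338 and 346 CPM against 292 CPM (-0.07 ± 0.09, adjusted p in edgeR of 0.50), and Cyp3a11 was higher on day 1, at 587 and 679 CPM against 333 CPM (0.63 ± 0.09). With both days at 100 or more, where 15.7% of all genes were lower and 12.1% higher, 5 brush-border enzymes were lower and 2 higher of 14, at a median of -0.67 against -1.33 in the main comparison. Of 14 transporters 5 were lower and 1 higher, at -0.26 against -1.22. Fatty acid uptake had 6 lower and 2 higher of 13, at -0.26 against -1.01. Apolipoprotein and chylomicron genes had 3 lower and 1 higher of 6, at -0.56 against -1.16. Of 10 genes of the urea cycle, arginine and carboxylesterases 8 were lower and 0 higher, at -0.90 against -1.13. Microvillus genes had 2 higher of 11, a share near that of all genes, at a median of -0.00077 against -0.72. Anpep was then higher on day 1, at 697 and 727 CPM against 292 CPM (1.18 ± 0.16).

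Lower villus and antimicrobial genes differed with both days cut at 100 or more as well. Median scores at that cut were 130 and 125 on day 1 and 151 on day 4. The difference was not particular to enterocyte-rich cells. In other cells the list had medians of 14.2 and 14.4 UMIs per 10000 on day 1 and 59.1 on day 4. In the main comparison 8 of 9 genes were lower on day 1. With both days at 100 or more 8 were lower and Reg3b was called higher. Reg3b then stood at 470 and 131 CPM in the day-1 cells, on 62 and 64 UMIs, against 123 CPM on day 4, so that the first library lay far above day 4 and the second close to it. Reg1, a secreted lectin of the lower villus, was at 52.4 and 63.0 CPM on day 1 against 1166 CPM on day 4, and at 45.4 and 51.3 CPM in the day-1 cells at 100 or more. Reg3a stood at 16.8 and 13.0 CPM against 425 CPM. Dmbt1 was at 4.32 and 2.89 CPM against 87.4 CPM, and had 0 UMIs in the day-1 cells at 100 or more of either library. At that cut it passed the filter through day 4 only, which fixed its direction. Reg3 genes have near-identical copies, so the single member is uncertain.

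Vitamin A genes split. Of 14 genes of sterol and vitamin A handling 11 were lower and 3 higher on day 1. Of the 12 that reached the filter's minimum of 1.60 CPM on both days, 10 were lower and 2 higher. Isx, a homeobox repressor that retinoic acid induces in gut, had 0 and 2 UMIs in members (0 and 0.321 CPM), against 1486 UMIs on day 4 (164 CPM). The day-4 level was 662 times that of members, with a counting interval of 183 to 5468. Scarb1 and Bco1, which ISX is known to repress, were higher on day 1. Isx reached the minimum on day 4 only and Bco1 on day 1 only, so the direction of each was fixed by the filter. With both days at 100 or more, where the minimum was 20.5 CPM, Scarb1 and Bco1 reached it on day 1 only. Scarb1, a receptor for lipoprotein and carotenoid uptake, was at 51.3 and 56.0 CPM in members and 2.75 CPM on day 4 (3.99 ± 0.23), but its level was much the same in other day-1 cells (40.4 and 38.8 CPM) and in enteroendocrine cells (56.2 and 53.5 CPM). Bco1, which splits β-carotene, was at 16.2 and 13.0 CPM against 0.991 CPM (3.48 ± 0.39), and with both days at 100 or more at 22.7 and 26.7 CPM against 0.991 CPM (4.51 ± 2.11, adjusted p in edgeR of 0.097), on 3 and 13 UMIs against 9. Adh1, a retinol-oxidising alcohol dehydrogenase, was lower at 48.6 and 57.9 CPM against 899.

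In 2 metabolic lists nearly every gene was lower. Glycolysis and hypoxia genes were lower on day 1 for 18 of 20, at a median of -1.60, and for 16 of 17 with both days at 100 or more. Ldha, lactate dehydrogenase A, was at 2024 and 1967 CPM on day 1 and 5137 CPM on day 4, and Egln3, an oxygen-sensing hydroxylase induced by hypoxia, at 23.2 and 28.7 CPM against 220. Cholesterol synthesis genes were lower for 22 of 22, at a median of -1.51, and for 17 of 22 with both days at 100 or more. Insig1, which restrains cholesterol synthesis and is itself induced when sterol is low, was at 126 and 131 CPM against 645. Neither difference was particular to enterocyte-rich cells. For glycolysis and hypoxia the medians of other cells were 64.0 and 67.0 UMIs per 10000 on day 1 and 180 on day 4. For cholesterol synthesis they were 19.3 and 16.1 on day 1 and 51.2 on day 4, where the other cells are those below 100. Of 19 immediate early genes 13 were lower and 2 higher. Of the 15 that reached the filter's minimum on both days, 12 were lower and 0 higher. Fatty acid oxidation and ketogenesis was mixed, with 9 lower and 4 higher of 16. In both metabolic lists total-UMI scaling left the direction as it was, with 18 of 20 and 19 of 22 lower.

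Among the genes with the largest differences, Gip needs its cells named. Gip, the incretin hormone of K cells, had 271 CPM in members of the first library and 0.962 CPM in those of the second, and 500 of its 501 UMIs in the first came from 1 barcode with 4 UMIs of Chga plus Chgb and a score of 20.4. The other genes highest on day 1 without a day-4 UMI were at least 28.5-fold (Cdc45) to 61.4-fold (Psca) higher, among them the mitosis genes Aspm, Ndc80 and Cep55 and the ileal hormone Fgf15. At the other end, Pga5, a pepsinogen, had 0 UMIs in members and 76 on day 4, at least 22.6-fold lower on day 1. A gene with 0 UMIs on a day passed the filter through the other day only, which fixed its direction.

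The step between enterocyte-rich and other cells was also compared between the days, as an interaction of class and day with a term for each library. Of 16274 genes, 1291 (7.93%) had a larger step upward (or a smaller step downward) on day 1 and 782 (4.81%) the reverse by edgeR's test. Trimmed-mean scaling underlies these counts, and with total-UMI scaling they were 2800 and 240. All 22 of 22 mitosis genes passed with a positive difference, at a median of 3.62. For Top2a, for instance, enterocyte-rich and other cells were at 152 and 444 CPM in the first day-1 library, 129 and 394 CPM in the second, and 2.31 and 169 CPM on day 4, where the other cells are all those below 100. DNA replication had 17 positive and 1 negative of 20, and stem cell genes 10 positive of 18.

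For absorptive lists the result turned on where the day-4 cells were split. Cytochrome P450 and conjugation genes had 11 positive and 3 negative of 16 with the day-4 cells split at 100, and 2 positive and 11 negative when split at 20. Over all genes the balance turned as well, with 9.66% of 16383 genes positive and 12.6% negative at 20, against the 7.93% and 4.81% at 100. Transporters had 8 positive and 2 negative of 17 at 100, against 11 negative at 20, and brush-border enzymes 6 positive and 1 negative of 15, against 2 positive and 8 negative. The mitosis list had 22 of 22 positive under both splits. No direction of the absorptive step between days is therefore given here.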

How the data were processed

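The deposited files held raw counts: UMIs per gene and barcode, 55335 genes per file, which the authors made with Cell Ranger 3.1.0 on GRCm38 after bcl2fastq 2.17, per the submitters' processing notes. Filters on barcodes and the strand setting of counting are not given in the sources used here. Depth ranged over the 6 libraries from 47258161 to 62567817 UMIs, and its limits are those of the intervals printed.

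Doublets were removed by rank of Scrublet score (scanpy 1.11.5) at 0.8% per 1000 barcodes, 2.86% to 4.47% of barcodes per library, because Scrublet's own threshold marked 0% to 1.11%. That left 28379 of 29565 barcodes, and 812 members of the 830 before removal. Members, other cells and day-4 cells were summed per library. Day-1 classes were described in CPM with 5 CPM added. Day 1 was tested against day 4, and the interaction of class and day, with edgeR 4.0.16 (R 4.3.3, filterByExpr, trimmed-mean scaling, quasi-likelihood F-test, Benjamini-Hochberg over all genes, with 1 residual degree of freedom each), and DESeq2 1.42.0 as the alternative. UMIs of 3′ ends were not scaled by length, so levels were compared only within a gene. Apoa1, Apoa4, Sis, Chga and Chgb were left out of all counts of genes.

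The members, the 35 gene lists and the tests were chosen with earlier results of these data known. The genes considered for naming were the 12 highest and 12 lowest of each comparison (5 for the interaction) and the 4 furthest from 0 in each list. Any other gene named was chosen after its values were seen. Genes with near-identical copies (Cyp2c, Cyp3a, Ces, Gstm, Defa, Ly6 and Reg3) are uncertain one by one. The scripts were tested on simulated counts before use.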

Additional observations from a re-analysis of the deposited data

Results flagged for a closer look

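For 10 genes the step between enterocyte-rich and other cells differed between day 1 and day 4 by edgeR's interaction term at an adjusted p of 0.05. They are the 5 highest and the 5 lowest of the 2073 genes called.

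The 5 highest had 0 UMIs in the day-4 cells at 100 or more, so the fitted log2 differences are no bound: Tifa at 10.95, Ndc80 at 10.60, Slfn9 at 10.57, Axin2 at 10.36 and Fgf15 at 10.32. Axin2, a Wnt target of the crypt, was at 5.41 and 3.37 CPM in members against 30.8 and 24.3 CPM in other day-1 cells, and at 0 in day-4 cells at 100 or more against 32.9 CPM in the rest of day 4. Slfn9 was at 14.6 and 10.9 CPM against 77.7 and 53.7 on day 1, and at 0 against 28.9 on day 4. Ndc80, a kinetochore gene, was at 17.3 and 11.4 CPM against 31.3 and 29.4 on day 1, and at 0 against 13.4 on day 4. Fgf15 was at 9.19 and 17.3 CPM against 2.93 and 5.63 on day 1, and at 0 against 1.54 on day 4. Tifa was at 2.16 and 2.40 CPM against 1.52 and 2.62 on day 1, and at 0 against 7.30 on day 4.

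Among the 5 lowest, Wincr1 was at -6.41 with 3 UMIs in day-4 cells at 100 or more, Lpar2 at -4.33 and Cfap57 at -4.27 with 1 UMI each over all members. Gcg, proglucagon, was at -3.39, with 2.16 and 5.61 CPM in members against 168 and 609 CPM in other day-1 cells, and the rule removes most cells with such hormone messages. Cybrd1, a duodenal ferric reductase, was at -3.36: 9.19 and 9.46 CPM in members against 8.32 and 14.4 CPM in other day-1 cells, and 28.9 CPM in day-4 cells at 100 or more against 4.59 CPM in the rest of day 4.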

How the results depend on the processing

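No paired analysis of the days was possible because day 4 had 1 vehicle library, and the labels do not link it to a day-1 library. Counts of day-1 genes higher or lower than in other cells were 321 and 731. The lower count was 437 with a floor of 50 CPM, 1431 with members at 50 or more and 233 with members at 10 or more, and without a replicate the counts were 338 to 465 higher and 906 to 1004 lower. Between days, 3342 higher and 3276 lower became 727 and 942 with both days at 100 or more, where fewer cells and genes were tested, 1582 and 1381 with DESeq2, and 2063 lower with total-UMI scaling. For the interaction, 1291 and 782 became 504 and 77 with DESeq2, 2800 and 240 with total-UMI scaling, and 2061 lower with day 4 split at 20. The second library's share of members was 12.7% without the Chga and Chgb limit and 12.6% in thinned cells. Without a day-1 replicate, day comparisons have 1 library a side, so only values were computed. Among named genes, these changed sign: Cck at 0.020 once other cells excluded enteroendocrine cells, an alternative added after seeing the data, and, between days, Isg15 at 0.84 with both at 20 to 100 and Nupr1 at -0.13 with all barcodes, -1.56 with day 4 at 20 or more and -1.87 with both at 20 to 100. Without replicate 1 and without replicate 2, Nupr1 was at 0.45 and -0.81, Ifit1 at 1.23 and -0.39, Tnfaip2 at -0.0064 and 1.35, and Pecam1 at -0.35 and 1.01. The causes were not tested.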
